A study of Homo sapiens with 10 samples.

Results

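The 78 genes described here encode proteins of the mitochondrial ribosome. They were found by symbol among the 58395 genes of the count files: every protein-coding gene named MRPL or MRPS plus a number, with an optional letter A to C. The symbols put 49 genes in the large subunit (MRPL) and 29 in the small subunit (MRPS), and all 78 were in the files and passed the filter on low counts. Total RNA depleted of ribosomal RNA was sequenced from HeyA8, an ovarian cancer line long kept in culture, 24 or 48 h after 10 nM of an siRNA was transfected. The 5 groups of 2 libraries were siNT1 at 24 h, siGGGGGC at 24 h, siNT1 at 48 h, siGGCAGU at 48 h and siGGGGGC at 48 h. The siNT1 duplex served as non-targeting control. The other siRNAs are named after positions 2 to 7 of the guide strand, the 6mer seed through which a guide pairs with messenger RNAs like a microRNA. siGGCAGU shares its seed with miR-34a-5p. The sample titles read siMxy and si34a, which were taken here as siGGGGGC and siGGCAGU. Both libraries of a group came from duplicate wells of 1 cell line, so p-values measure the spread between wells and libraries only, and with 2 against 2 an exact permutation test cannot give a two-sided p below 0.333.

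Mitochondria keep a ribosome of their own, which makes the few respiratory chain subunits that the mitochondrial genome encodes. Its RNAs come from that genome, whereas its proteins come from nuclear genes and are imported. The large subunit forms the peptide bond, and the small subunit reads the codon. Some of the proteins have bacterial counterparts (such as those of MRPL2, MRPL3, MRPL4, MRPS2 and MRPS12), and others are found only in mitochondrial ribosomes (such as those of MRPL55, MRPS22, MRPS26 and MRPS31). A few have another role: MRPL58 can release a peptide from a stalled ribosome, MRPL12 also binds the mitochondrial RNA polymerase, and MRPS36 is a component of the 2-oxoglutarate dehydrogenase complex. Structures place the proteins of MRPS30 and MRPS18A in the large subunit in spite of their names.

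The word GCCCCC, which pairs with the seed of siGGGGGC, was present in the longest annotated 3′ UTR of 14 members. The word ACTGCC, which pairs with that of siGGCAGU, was present in 15. In the 3′ UTR of the MANE Select or canonical transcript, GCCCCC is absent from MRPL4, MRPL20, MRPL23 and MRPS27 and present in MRPL2. That 3′ UTR of MRPS7 also holds ACTGCC. The first 5 sites below are shown because the siGGGGGC effect on these messages was lower at 48 h than at 24 h by the interaction test, and the last because MRPL20 was higher at both times. The word is in capitals, with 12 bases of 3′ UTR on either side (hg38, GENCODE release 44), and coordinates are those of the word.
MRPL49 (chr11:65127012-65127017, plus strand): agaccccaccctGCCCCCaaactggctaag
MRPS34 (chr16:1772018-1772023, minus strand): tctggccctgctGCCCCCacacccaactcc
MRPS26 (chr20:3048133-3048138, plus strand): gacagggccacaGCCCCCtcaggcagccag
MRPS27 (chr5:72216040-72216045, minus strand): tgtgtcacttagGCCCCCcaggaagcagat
MRPS5 (chr2:95086689-95086694, minus strand): ttctagatataaGCCCCCctatcatacatg
MRPL20 (chr1:1405367-1405372, minus strand): ggatcactttgaGCCCCCaggagtttgaag

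For siGGCAGU, the first 4 sites below lie in the 3 messages with the word that fell most, MRPS12, MRPS25 and MRPS5, and the last lies in MRPL52, which rose. Both copies in MRPS25 are shown, and the upstream of 2 in MRPS5.
MRPS12 (chr19:38932964-38932969, plus strand): acaagacactgtACTGCCctctgctgggaa
MRPS25 (chr3:15047482-15047487, minus strand): tggctcaacccaACTGCCaagttccttcca
MRPS25 (chr3:15046317-15046322, minus strand): gctggtgtcctaACTGCCtcagaagagtcc
MRPS5 (chr2:95085709-95085714, minus strand): atgggatggggcACTGCCtcgttactgcct
MRPL52 (chr14:22834469-22834474, plus strand): agctgttagatcACTGCCtgggaggcttgg

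The libraries held 19781445 to 42428986 counts. Library totals were affected by 2 small RNA genes, RN7SL2 (9.76 to 18.1% of a library) and SNORD3A (9.18 to 15.2%), so values are given as counts normalised by TMM, a scaling that centres the bulk of genes between libraries. The cells expressed the epithelial keratins KRT7, KRT8 and KRT18 and, more strongly, the mesenchymal marker VIM. The mesenchymal FN1, CDH2 and ZEB1 had at least 1268, 1441 and 1569 normalised counts in each library. Of the other ovarian epithelial markers, EPCAM had 10.5 to 40.6 normalised counts, WT1 36.2 to 109, PAX8 87.0 to 909 and MUC16 0 to 31.0. PTPRC, PECAM1, HBB and ALB, which mark other cell types, had 0 to 16 raw counts in each library. EIF5A, which the study followed as a target of siGGGGGC, was lower than in siNT1 in the libraries titled siMxy (edgeR log2 fold change -2.09 at 24 h and -3.48 at 48 h). Its raw counts at 48 h were 11597 and 15279 in siNT1, 2994 and 7878 in si34a and 733 and 746 in siMxy. EIF5A was thus also lower in si34a, though less so. The study picked this gene from RNA-seq of HeyA8 cells with siGGGGGC, so its fall is no independent check of the titles. As in any bulk sample, fewer cells of a type and less RNA per cell cannot be told apart.

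Of all counts, the members made up 0.368 to 0.404% of a library for the large subunit and 0.159 to 0.184% for the small. Per kilobase of exon, the levels spanned a wide range. Exon bases were the union over all annotated transcripts, from 582 for MRPL41 to 19524 for MRPS27, so this order depends on the annotation. MRPL51, an outer protein of the large subunit, was highest at 367 CPM (counts scaled to the TMM library size) per kilobase, 17.7 times the median member. It was followed by MRPL33 at 169.9, MRPL54 at 148 and MRPL14 at 136. MRPL14 and MRPL47 (135.7) were too close to rank. Of the 78 members, 48 averaged 1000 or more normalised counts, 26 fell between 100 and 1000, and 4 averaged below 100: MRPL12, MRPL38, MRPL53 and MRPS24. Each of these 4 shares 23.2% to 72.8% of its exon bases with another gene on the same strand, and a read that falls in both genes is ambiguous to the counter. In all, 17 members share 20% or more of their exon bases with another gene on either strand: these 4, MRPL2, MRPL33, MRPL43, MRPL51, MRPS5, MRPS9, MRPS17, MRPS18A, MRPS18C, MRPS22, MRPS25, MRPS28 and MRPS34. MRPL2 and MRPS5 each reach 20% only through a gene that the count files do not list.

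The summed normalised counts of the family were largest at 24 h. For siNT1 at 24 h, the large subunit summed to 106144 and 108597 and the small subunit to 47051 and 47951. In siNT1 at 48 h the sums were 80379 and 92359 for the large subunit and 37856 and 42105 for the small. Both subunits were thus lower in both later control libraries than in both earlier ones. With siGGGGGC the large subunit summed to 109722 and 116892 at 24 h and to 100845 and 100500 at 48 h. siGGCAGU at 48 h gave 101908 and 91149, so one of its libraries lay below a siNT1 library of the same time.

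**Figure D1:**
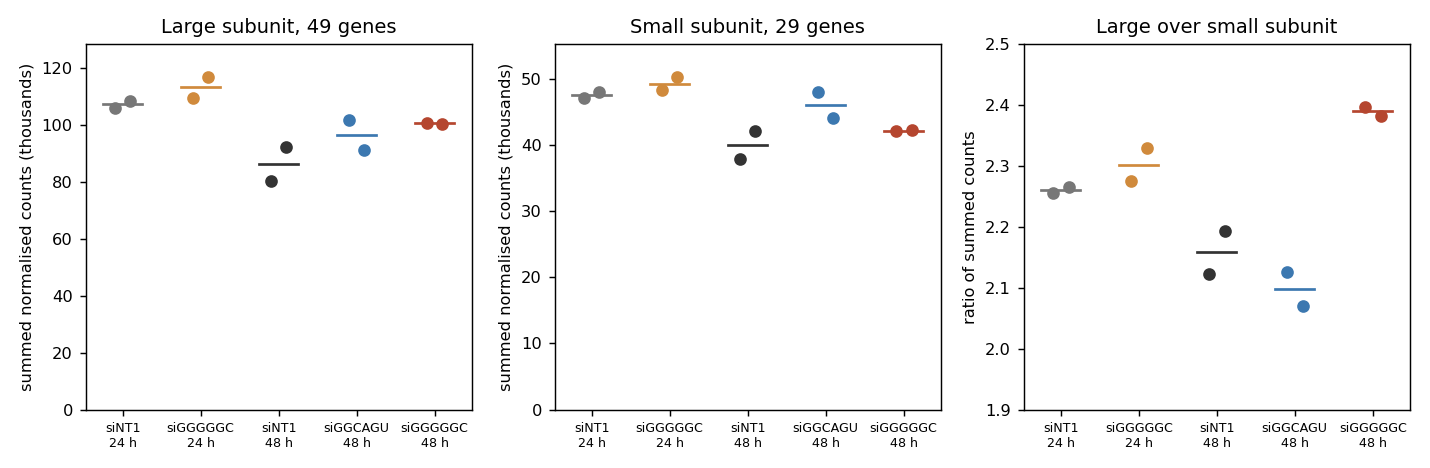
Summed normalised counts of the 49 large subunit genes (left) and the 29 small subunit genes (middle), and the ratio of the raw sums (right, axis from 1.9), in each library (points) with the group mean (line). siNT1 at 48 h has the lowest mean sums, and the ratio is highest in both siGGGGGC libraries at 48 h, at 2.40 and 2.38.

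The ratio of large to small subunit counts answers whether both subunits moved together. It was 2.26 in both siNT1 libraries at 24 h, 2.28 and 2.33 with siGGGGGC at 24 h, 2.12 and 2.19 in siNT1 at 48 h, 2.13 and 2.07 with siGGCAGU and 2.40 and 2.38 with siGGGGGC at 48 h. Both siGGGGGC libraries at 48 h therefore lay above every other library, while siGGCAGU overlapped siNT1. On the log2 scale the ratio differed from siNT1 by 0.15 for siGGGGGC at 48 h, by 0.03 for siGGGGGC at 24 h and by -0.04 for siGGCAGU, with a largest SD within a group of 0.03. The sums are led by a few abundant genes. Without the 17 members whose exons overlap another gene by 20% or more, MRPL51 among them, the difference was 0.21 for siGGGGGC at 48 h, 0.07 at 24 h and -0.21 for siGGCAGU.

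At 24 h most of the members called with siGGGGGC were higher than in siNT1. By edgeR's quasi-likelihood test with Benjamini-Hochberg adjustment over the 16905 genes tested, at an adjusted p below 0.05, 14 members were higher and 1 was lower than in siNT1. These were 17.9% and 1.28% of members. The share over all genes was 10.6% higher and 8.32% lower, and over protein-coding genes 13.6% and 9.2%. The large subunit gave 11 of the members called higher and the small subunit 3. The median log2 fold change was 0.10 for the large subunit and 0.03 for the small, against 0.00 for all genes. Members that were not called lay between -0.30 and 0.29. Both siGGGGGC libraries were above both siNT1 libraries for 37 members and below both for 18, which held for 32% and 30.7% of all genes.

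The largest rises at 24 h were in the large subunit. MRPL55, a protein found only in mitochondrial ribosomes, had 340 and 419 normalised counts in siNT1 and 709 and 792 with siGGGGGC. MRPL34, a small protein with a bacterial counterpart, had 234 and 253 against 466 and 463. For both genes the siGGGGGC libraries were far above the controls and the duplicates stayed close. The log2 fold changes were 0.99 (SE 0.14, edgeR adjusted p = 0.00014) for MRPL55 and 0.93 (SE 0.13, edgeR adjusted p = 0.00011) for MRPL34. MRPL41, which has also been linked to apoptosis, rose by 0.50 (SE 0.10), and the peptide release protein MRPL58 by 0.42 (SE 0.11). MRPL12 had 8.35 and 14.4 counts in siNT1 and 28.9 and 42.9 with siGGGGGC, a log2 fold change of 1.66 with an SE of 0.54 (edgeR adjusted p = 0.044) that rests on few reads.

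In the small subunit MRPS11, MRPS12 and MRPS34 were higher at 24 h, by 0.49, 0.40 and 0.37 on the log2 scale. MRPS12 is the counterpart of the bacterial S12 protein of the decoding centre. It had 1029 and 1151 counts in siNT1 and 1480 and 1404 with siGGGGGC, so the groups did not overlap. MRPL50 was the member called lower in the fit of all groups, from 3124 and 3078 counts to 2372 and 2458 (log2 fold change -0.36, SE 0.10, edgeR adjusted p = 0.017). The count of members called higher at 24 h depended on single libraries: it was 2 without siNT1 replicate 1, 6 without siNT1 replicate 2, 8 without siGGGGGC replicate 1 and 3 without siGGGGGC replicate 2, and no member was called lower in any of these. MRPL55 and MRPL34 stayed past the threshold in each. With library totals alone as the scale, 2 members were higher and 2 lower, against 4.62% and 8.38% of all genes. When only the groups compared were fitted, 20 members were higher and 10 lower, against 17.6% and 16.7% of all genes.

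At 48 h siGGGGGC changed members in both directions, as it did other protein-coding genes, and the subunits differed in balance. Of the 78 members, 31 were higher and 20 lower than in siNT1 at 48 h (39.7% and 25.6%). The shares were 27.8% higher and 27.5% lower over all genes, and 31.6% and 30.1% over protein-coding genes. In the large subunit 24 were higher and 8 lower, with a median log2 fold change of 0.23. In the small subunit 7 were higher and 12 lower, with a median of 0.01, and the median of all genes was -0.01. The small subunit median turned with the processing: it was 0.11 without the 17 members that overlap another gene, -0.15 with library totals alone as the scale and -0.12 without the filter on low counts. The large subunit median was 0.079 with library totals and 0.11 without the filter. With library totals 18 members were higher and 21 lower, against 19.1% and 31.6% of all genes. The libraries did not overlap for 38 members above siNT1 and 24 below, against 38.1% and 39.3% of all genes. This comparison and that of siGGCAGU use the same siNT1 libraries, which differed from each other more than those at 24 h. The median over members of replicate 1 minus replicate 2 was -0.12 against -0.04 on the log2 scale. It was 0.15 for the siGGCAGU libraries and 0.0043 for siGGGGGC at 48 h.

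**Figure D2:**
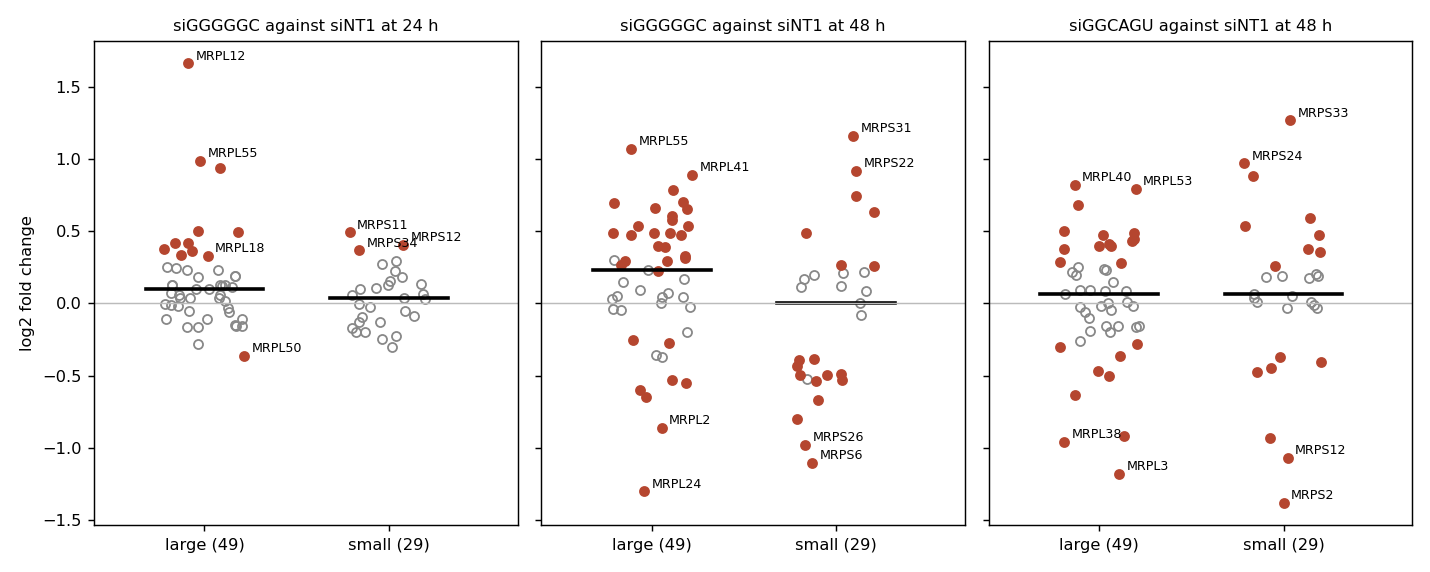
Log2 fold change of each member in the 3 comparisons with siNT1, by subunit. Filled points have an adjusted p below 0.05, open points do not, and the bar is the median. At 48 h with siGGGGGC the large subunit lies mostly above 0 (median 0.23), and the small subunit splits into 7 called higher and 12 called lower.

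MRPL24 fell most in the large subunit. Its product is the counterpart of bacterial L24, which lies near the exit of the peptide tunnel. It had 1783 and 2216 normalised counts in siNT1, 824 and 799 with siGGGGGC and 2579 and 2138 with siGGCAGU. Only the siGGGGGC libraries were low, at a log2 fold change of -1.30 (SE 0.11, edgeR adjusted p = 1.5e-07). MRPL24 lies at chr1:156737303-156741590 (hg38, minus strand), and its 3′ UTR holds neither seed word. MRPL2, which helps to form the peptidyl transferase centre, followed at -0.86 (SE 0.11), then MRPL17 at -0.65 (SE 0.09) and MRPL36 at -0.60 (SE 0.09). The longest 3′ UTR of MRPL2 lacks GCCCCC, but that of its MANE Select or canonical transcript holds it.

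MRPL55 was again higher, at 702 and 726 counts against 376 and 306 in siNT1 (log2 fold change 1.07, SE 0.13, edgeR adjusted p = 4.8e-06). MRPL41 rose by 0.89 (SE 0.10), from 548 and 519 counts to 993 and 988. MRPL47 rose by 0.79, MRPL11 by 0.70, MRPL58 by 0.66 and MRPL44 by 0.65 on the log2 scale. MRPL11 is the counterpart of the L11 protein near the stalk that recruits translation factors, and MRPL44 resembles ribonuclease III. MRPL34 was still higher, by 0.48 (SE 0.12).

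The small subunit held the largest rise of the family. MRPS31, found only in mitochondrial ribosomes, had 565 and 610 counts in siNT1 and 1316 and 1314 with siGGGGGC (log2 fold change 1.16, SE 0.12, edgeR adjusted p = 7.3e-07). MRPS22 rose by 0.92 (SE 0.10), from 2120 and 2379 counts to 4168 and 4337. In both genes the duplicates lay close and far from the controls. Of the MRPS22 exon bases, 38.9% are shared with COPB2 on the opposite strand, and the strand setting of the counting is not given in the sources used here. MRPS9 rose by 0.74 and MRPS36 by 0.63, and the pseudogene MRPS36P1, a near copy, held 10.6% as many counts as MRPS36.

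Falls in the small subunit were led by MRPS6, which had 421 and 320 counts in siNT1 and 149 and 194 with siGGGGGC (log2 fold change -1.10, SE 0.20, edgeR adjusted p = 0.00025). MRPS26 went from 306 and 312 counts to 163 and 150 (-0.98, SE 0.15). MRPS17, the counterpart of bacterial S17, fell by 0.80 (SE 0.13). Neither MRPS18A, at a log2 fold change of 0.01, nor MRPS18C, at -0.08, passed the test, and their relative MRPS18B, at 0.20, did not either (edgeR adjusted p = 0.054). MRPS30 was lower by 0.38 (SE 0.10).

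siGGCAGU changed about as large a share of the family as of all genes, with other members in the lead. At 48 h 23 members were higher and 16 lower than in siNT1, against 27.8% and 24.9% of all genes. The large subunit had 14 higher and 9 lower, and the small subunit 9 higher and 7 lower. Medians were 0.06 for the large subunit, 0.07 for the small and 0.02 for all genes. Both siGGCAGU libraries lay above siNT1 for 27 members and below for 17, against 37.7% and 34.9% of all genes. When only these groups were fitted, 15 members were called higher, against 22.3% of all genes. With library totals alone as the scale 13 members were higher and 21 lower, against 19.3% and 28.2% of all genes.

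MRPS2, the counterpart of bacterial S2, fell most. It had 512 and 516 counts in siNT1, 179 and 211 with siGGCAGU and 345 and 384 with siGGGGGC at 48 h. The siGGCAGU libraries were lowest, with a log2 fold change of -1.38 (SE 0.12, edgeR adjusted p = 1.2e-07), and the siGGGGGC libraries lay between the others. MRPL3, the counterpart of bacterial L3, which reaches towards the peptidyl transferase centre, had 3502 and 3642 counts in siNT1, 1624 and 1535 with siGGCAGU and 4181 and 4176 with siGGGGGC. Among these groups it was low with siGGCAGU (log2 fold change -1.18, SE 0.09, edgeR adjusted p = 2e-08). MRPS12 fell by 1.07 (SE 0.13), MRPS26 by 0.94 (SE 0.14), MRPL4 by 0.92 (SE 0.16) and MRPL1 by 0.64 (SE 0.12). MRPL38 fell by 0.96 (SE 0.25) at 22.2 to 48.7 counts in these libraries.

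MRPS33 rose most, from 855 and 1041 counts in siNT1 to 2353 and 2228 (log2 fold change 1.27, SE 0.10, edgeR adjusted p = 2.8e-08), and siGGGGGC at 48 h left it at 1050 and 1018. MRPS18B rose by 0.88 (SE 0.08), MRPL40 by 0.82 (SE 0.10), MRPL51 by 0.68 (SE 0.11) and MRPL45 by 0.50 (SE 0.09). MRPL45 resembles the import motor protein TIM44 and lies where the ribosome meets the inner membrane. MRPS24 and MRPL53 were called higher at 0.97 (SE 0.27) and 0.79 (SE 0.31), on fewer than 50 counts in each library. MRPL41 and MRPL44, which rose with siGGGGGC, had values of -0.04 and -0.02, and MRPL58 was higher by 0.40 (SE 0.11).

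**Figure D3:**
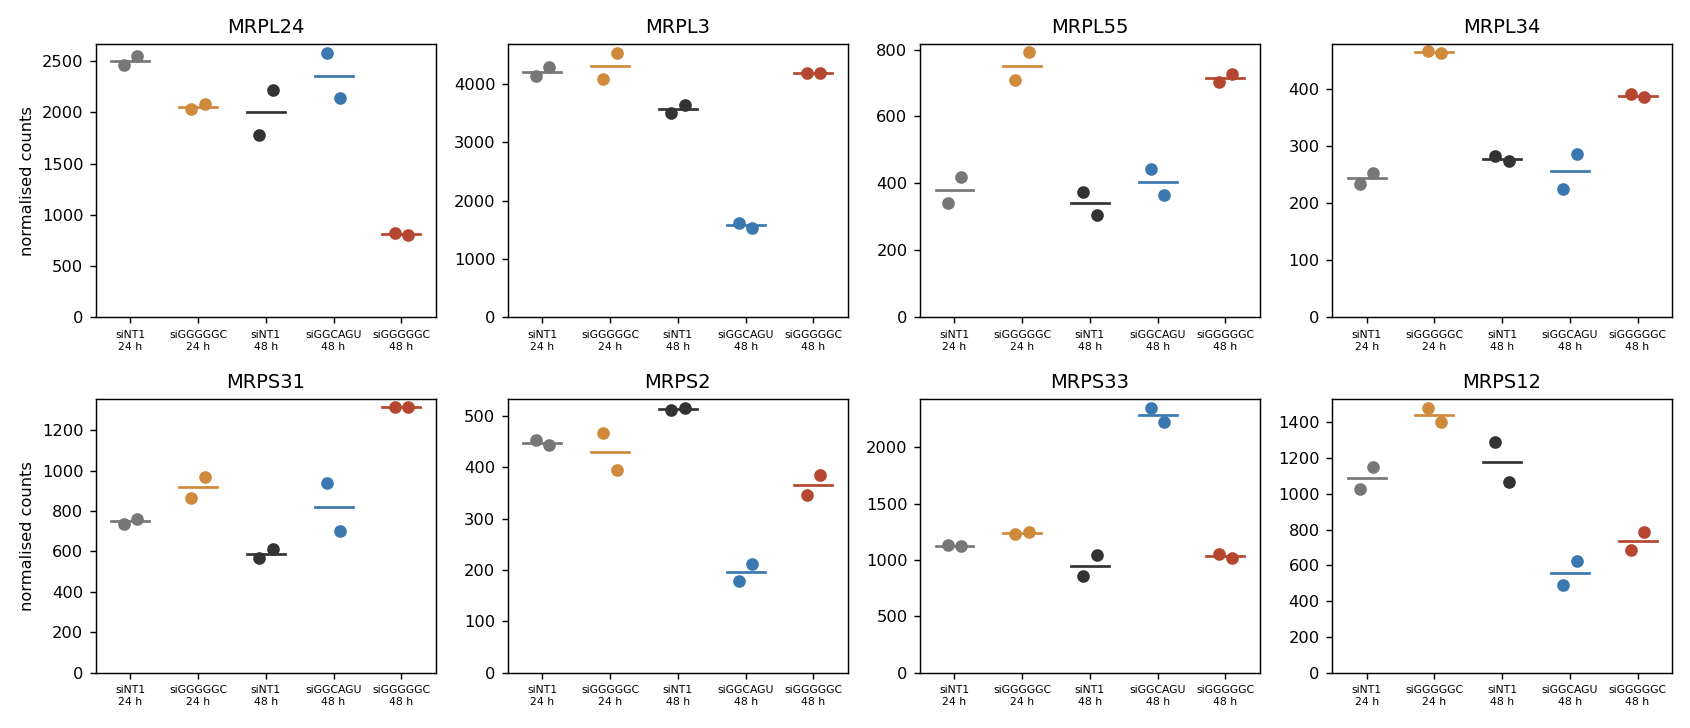
Normalised counts of 8 members in each library (points) with the group mean (line). MRPL24 is low in both siGGGGGC libraries at 48 h (824 and 799), MRPL3 and MRPS2 are lowest with siGGCAGU, MRPS33 is highest with siGGCAGU (2353 and 2228), and MRPS12 is high with siGGGGGC at 24 h and low with both siRNAs at 48 h.

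A direct comparison asked which members the 2 seeds moved apart at 48 h. With siGGGGGC 29 members were higher and 24 lower than with siGGCAGU, against 26.7% and 27.6% of all genes. The large subunit had 21 higher and 13 lower, with a median of 0.24, and the small subunit 8 higher and 11 lower, with a median of -0.02. The libraries were apart for 34 members with siGGGGGC above and 26 below, against 37.7% and 38% of all genes. MRPL24 was lower with siGGGGGC by 1.54 (SE 0.11, edgeR adjusted p = 2.3e-08). MRPL3 was higher with siGGGGGC at a log2 difference of 1.40 (SE 0.09, edgeR adjusted p = 3.2e-09), and MRPL11 at 0.98 (SE 0.10). MRPS26, with a difference of -0.05 (SE 0.16), and MRPL50, with 0.02 (SE 0.10), were not shown to differ between the seeds.

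For 28 members the siGGGGGC effect differed between the time points. By the interaction term of the same edgeR fit, it was higher at 48 h for 12 members and lower for 16 (15.4% and 20.5%). The shares were 13.4% and 15.2% over all genes, and 15.8% and 18.5% over protein-coding genes. In the small subunit 4 were higher and 11 lower, and in the large subunit 8 were higher and 5 lower. MRPS12 turned from above siNT1 at 24 h to below it at 48 h, with 1290 and 1064 counts in siNT1 and 689 and 789 with siGGGGGC, an interaction of -1.07 (SE 0.18, edgeR adjusted p = 0.00032). MRPS34 turned in the same direction, by -0.80 (SE 0.13). MRPL24 gave -1.02 (SE 0.16), MRPS31 0.87 (SE 0.17) and MRPS36 0.72. The count of 12 was 5 to 8 without any 1 of the libraries except siNT1 replicate 2 at 48 h, without which it was 17.

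Of the 14 members with GCCCCC in the 3′ UTR, 4 were called higher and 0 lower at 24 h (MRPL12, MRPL20, MRPS11 and MRPS34), with a median log2 fold change of 0.19 against 0.06 for the other 64. Of all protein-coding genes tested that hold the word, 12.9% were higher and 13.1% lower. Of those without it, 14.0% were higher and 7.4% lower. The medians were 0.01 with the word and 0.04 without. At an unadjusted p below 0.05, and by DESeq2, 0 of the 14 were lower as well. The lowest of them, MRPS26, had a value of -0.30 (SE 0.15, edgeR adjusted p = 0.19). At 48 h 6 members with the word were higher and 5 lower (42.9% and 35.7%), with a median of -0.08 against 0.16. Of all protein-coding genes with the word, 25.4% were higher and 36.8% lower. Of those without it, 34.6% were higher and 27.0% lower. The medians were -0.15 with the word and 0.07 without. The share of members that fell was thus near that of other genes with the word. The difference of medians among members was -0.24. It was -0.50 to -0.05 when 1 library was left out at a time, -0.54 with the 3′ UTR of the MANE Select or canonical transcript and -0.13 at a mean count of at least 50.

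By the interaction term, the siGGGGGC effect was lower at 48 h than at 24 h for 35.7% of the 14 members with the word. Over all protein-coding genes tested with the word it was lower for 22.7% and higher for 11.2%. Without the word these shares were 16.5% and 18.0%. The control itself differed by word. In siNT1 at 48 h against 24 h, 17.5% of protein-coding genes with the word were higher and 3.8% lower. Without the word 9.68% were higher and 9.48% lower. The control medians were 0.14 with the word and -0.02 without, and among members -0.14 and -0.28. How much of the interaction comes from this change in the control was not tested. The 5 members with a lower effect were MRPL49, MRPS5, MRPS26, MRPS27 and MRPS34, named here for the word and not by size. Their values at 48 h were -0.55 (SE 0.10) for MRPL49, -0.53 (SE 0.08) for MRPS5, -0.98 (SE 0.15) for MRPS26, -0.39 (SE 0.09) for MRPS27 and -0.43 (SE 0.09) for MRPS34. In MRPL49 and MRPS34 the word stands between a T and an A, as printed above. MRPS23, MRPL19, MRPL20, MRPL23, MRPL42 and MRPS11 also hold the word and were called higher at 48 h.

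**Figure D4:**
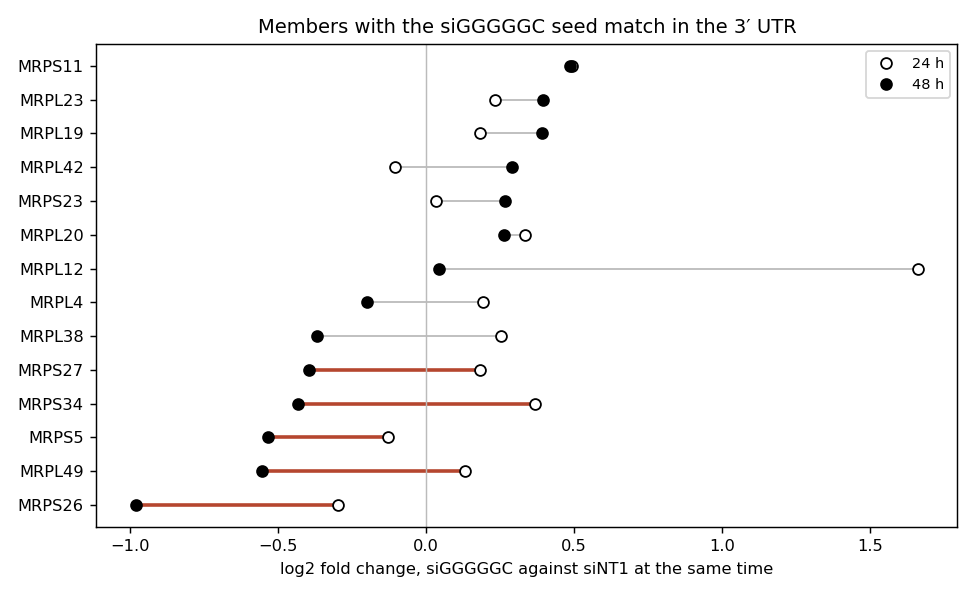
Log2 fold change with siGGGGGC against siNT1 at 24 h (open points) and 48 h (filled points) of the 14 members with the seed match in the longest 3′ UTR, joined by a line that is thick and red where the interaction term has an adjusted p below 0.05. The 5 red lines all run towards lower values at 48 h, a share of 35.7% against 22.7% of protein-coding genes tested with the word. Of the 14 members, 6 were called higher at 48 h.

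Of the 15 members with ACTGCC in the 3′ UTR, 3 were higher and 4 lower with siGGCAGU, (20% and 26.7%), with a median of 0.06 against 0.09 for the other 63. Of all protein-coding genes with the word, 27.5% were higher and 32.9% lower. Of those without it, 33.7% were higher and 25.1% lower. The medians were -0.05 with the word and 0.08 without. MRPS12 was the member with the word that fell most. MRPS25, which shares 39.1% of its exon bases with NR2C2 on the opposite strand, was lower by 0.47 (SE 0.09), MRPS5 by 0.37 (SE 0.08) and MRPL50 by 0.30 (SE 0.10). MRPL52, MRPL33 and MRPL47 carry the word and rose by 0.41, 0.37 and 0.28. Neither MRPS2 nor MRPL3, the deepest falls in each subunit, holds the word.

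The control cells themselves changed with time. In siNT1 at 48 h against 24 h 25 members were lower and 0 higher, against 7.2% lower and 9.37% higher over all genes. By DESeq2 28 were lower and 0 higher, and at an unadjusted edgeR p below 0.05 44 were lower and 1 higher. The large subunit had 18 of the 25 and the small subunit 7, with medians of -0.27 in each against 0.00 for all genes. By size, 64 of the 78 were below 0. In 55 both later libraries lay below both earlier ones and in 6 above, each of which held for 30.8% of all genes. MRPL1, the counterpart of the stalk protein L1, had 1191 and 1203 counts at 24 h and 737 and 915 at 48 h (log2 fold change -0.53, SE 0.11, edgeR adjusted p = 0.0076), and MRPL48 had 936 and 1004 against 616 and 784 (-0.47, SE 0.11, edgeR adjusted p = 0.013).

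The count of falls depended on single libraries. It was 0 without siNT1 replicate 1 or replicate 2 at 24 h, 0 without replicate 1 at 48 h and 34 without replicate 2 at 48 h, while the medians stayed between -0.33 and -0.15. With library totals alone as the scale, the median log2 fold change was 0.23 for all genes and -0.03 for members. The members thus still lay 0.26 below the median gene. On that scale 1 member was called higher and 0 lower, against 16.1% and 1.06% of all genes. RN7SL2 took 13.9 and 14.6% of the siNT1 libraries at 24 h and 9.76 and 11.9% at 48 h. Its part in the result was not tested.

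**Figure D5:**
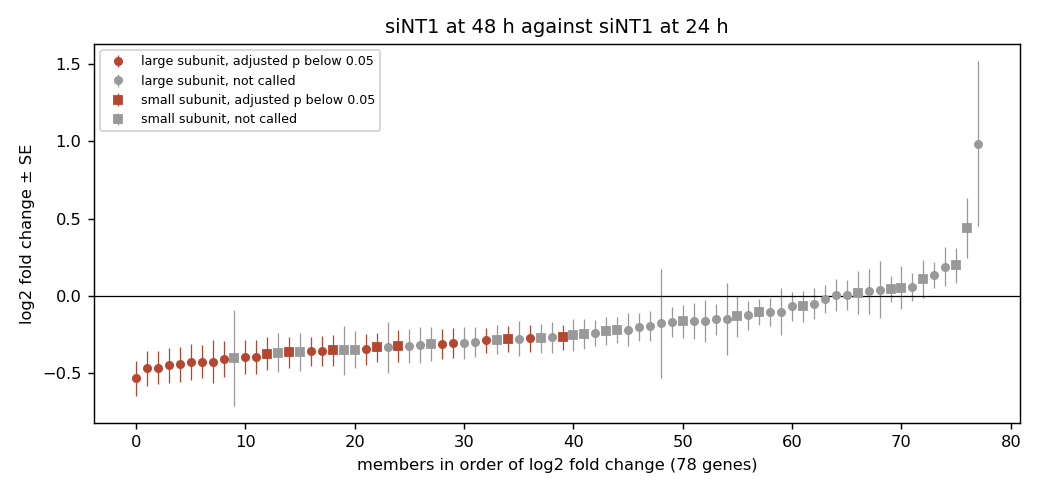
Log2 fold change with its SE of the 78 members in siNT1 cells at 48 h against 24 h, in order of size (circles, large subunit; squares, small subunit; red, adjusted p below 0.05). Most of both subunits lie below 0, with 25 called lower, and the highest point, MRPL12, rests on few counts.

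Few members changed by more than 1 on the log2 scale, that is by over 2 times. With siGGGGGC at 24 h 1 member was past it upwards (MRPL12) and 0 downwards, where 1.55% and 2.17% of all genes were. At 48 h 2 were past it upwards (MRPL55 and MRPS31) and 2 downwards (MRPL24 and MRPS6), against 10.5% and 11% of all genes. With siGGCAGU 1 was past it upwards (MRPS33) and 3 downwards (MRPS2, MRPL3 and MRPS12), against 10.7% and 9.62%. Between the seeds 1 was higher with siGGGGGC and 5 lower, against 10.1% and 12.8%, and for the interaction 0 were higher and 3 lower, against 4.83% and 6.36%. In siNT1 over time 0 members passed it in either direction, against 1.06% upwards and 0.461% downwards. Most members moved by less than this in every comparison.

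Other genes of mitochondrial translation were counted from lists of their roles. The shares over all genes, against which the counts below are to be read, were 10.6% higher and 8.32% lower with siGGGGGC at 24 h, 27.8% and 27.5% with siGGGGGC at 48 h, and 27.8% and 24.9% with siGGCAGU. Of 5 ribosomal proteins without an MRP symbol, AURKAIP1 was higher with siGGGGGC at 24 h by 0.35 (SE 0.09). At 48 h 2 were higher, AURKAIP1 by 0.69 (SE 0.09) and DAP3, which binds GTP in the small subunit, by 0.53 (SE 0.10), and PTCD3 was lower by 0.21 (SE 0.08), with a list median of -0.15. With siGGCAGU DAP3 was higher by 0.38 (SE 0.10). Of 26 assembly and rRNA modification factors, 5 were higher and 2 lower with siGGGGGC at 24 h, 4 higher and 12 lower (15.4% and 46.2%) at 48 h, and 2 higher and 9 lower (7.69% and 34.6%) with siGGCAGU. MPV17L2, which is needed for ribosome assembly, had 426 and 450 counts in siNT1 and 173 and 210 with siGGGGGC at 24 h, and 398 and 459 counts in siNT1 and 137 and 120 with siGGCAGU at 48 h. It was low in all treated libraries (log2 fold change -1.19 with siGGGGGC at 24 h, -1.73 with siGGGGGC at 48 h and -1.75 with siGGCAGU). MRM1, a methyltransferase of the large ribosomal RNA, fell by 2.41 (SE 0.28) with siGGGGGC at 48 h, from 63.5 and 63.0 counts to 11.2 and 12.4.

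Among the 16 translation factors tested, 3 were higher and 4 lower (18.8% and 25%) with siGGGGGC at 48 h and 1 higher and 3 lower (6.25% and 18.8%) with siGGCAGU, at or below the shares over all genes. LRPPRC, which stabilises mitochondrial messages, fell by 1.06 (SE 0.10) and 0.74 (SE 0.10). Of 9 genes of mitochondrial transcription and genome maintenance, 2 were higher and 1 lower (22.2% and 11.1%) with siGGGGGC at 48 h, and 1 higher and 5 lower (11.1% and 55.6%) with siGGCAGU. TFAM, which packs the mitochondrial genome and starts its transcription, rose with siGGGGGC from 3956 and 4016 counts to 5819 and 6096 at 24 h, and from 3443 and 3766 to 5834 and 5567 at 48 h. Of 8 regulators of nuclear genes for mitochondria that passed the filter, 5 (62.5%) were lower with siGGCAGU, and 5 were lower and 2 higher (62.5% and 25%) with siGGGGGC at 48 h. PPARGC1B fell most with both, and by 1.54 (SE 0.20) with siGGGGGC. The mitochondrial ribosomal RNAs MT-RNR1 and MT-RNR2 were listed at 0 in every library.

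Promoters were available for 69 members, as 250 bases before and 50 after the gene start (RefSeq, GRCh38.p14), and were searched on both strands. CCGGAAG, a word of ETS factors such as GABPA, was present in 42.0% of members' promoters and 14.4% of all 15345, AAGATGG, a word of YY1, in 33.3% and 6.43%, and TGCGCA, the core of the NRF1 motif, in 20.3% and 10.8%. For CCGGAAG the share was 40.5% in the large and 44.4% in the small subunit. The windows below are from members of both subunits that were lower in siNT1 at 48 h than at 24 h, with the word in capitals.
MRPL11 (chr11:66438808-66438834, minus strand): cctctggcccAAGATGGtggcgcccag
MRPL50 (chr9:101398579-101398605, minus strand): gatctcatcgAAGATGGcggcgcgatc
MRPL47 (chr3:179604661-179604687, minus strand): gcttgagacgCCGGAAGtgacgctatc
MRPS22 (chr3:139343897-139343923, plus strand): ctataagggcCCGGAAGacttccggcc
MRPS18B (chr6:30617810-30617835, plus strand): tcctgaagcaTGCGCAgttgcctttc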

How the data were processed

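Ribosomal RNA-depleted total RNA was sequenced from 10 libraries. After trimming (Trimmomatic), the authors mapped reads to hg38 by TopHat or STAR and took counts for each Ensembl gene with HTSeq. The labels name TopHat and Bowtie2. The strand setting is not given in the sources used here. The deposited files hold raw counts per gene, with 0 entries that name no gene, and 19781445 to 42428986 counts per library. Tables of the authors' own comparisons (means, fold changes and p-values) were not used. Gene identifiers were matched to GENCODE release 44 (98.9% found).

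Genes were filtered with filterByExpr (16905 kept) and compared in edgeR 4.0.16 (R 4.3.3) by its quasi-likelihood test. The fit held all 10 libraries and 5 groups, with TMM normalisation and 5 residual degrees of freedom. Benjamini-Hochberg adjustment covered every gene tested, and a member was called at an adjusted p below 0.05. Values are counts divided by the TMM library size and scaled to its mean. DESeq2 1.42.0 was an alternative. The scripts were checked on simulated counts.

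Named members were 9 with another role, subunit or close relative. Added for each comparison with siNT1 were the 4 largest rises and falls of the large subunit and 3 of the small, among those called without overlap of libraries, and 2 each way for the other comparisons. Members with a seed word were named for the word. Of each list of other mitochondrial genes, 1 rise and 1 fall could be named. The members, lists and rules were chosen with earlier results of these data known. Replicate numbers did not pair the samples, by the check given in the closing section, and no source ties them to a batch.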

Additional observations from a re-analysis of the deposited data

Results flagged for a closer look

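Results are listed here because a test of the difference between the time points, the interaction term of the edgeR fit, found the siGGGGGC effect at 48 h unlike that at 24 h at an adjusted p below 0.05. Over the 78 members 12 were higher and 16 lower (15.4% and 20.5%). The shares were 13.4% and 15.2% over all genes and 15.8% and 18.5% over protein-coding genes. In the large subunit the difference of effects on the log2 scale was -1.02 for MRPL24, -0.90 for MRPL2, -0.75 for MRPL17, -0.68 for MRPL49 and -0.44 for MRPL36. It was 0.67 for MRPL47, 0.61 for MRPL48, 0.59 for MRPL33, 0.57 for MRPL54, 0.53 for MRPL44, 0.51 for MRPL39, 0.39 for MRPL41 and 0.37 for MRPL10. In the small subunit it was -1.07 for MRPS12, -1.01 for MRPS6, -0.80 for MRPS34, -0.68 for MRPS26, -0.63 for MRPS17, -0.62 for MRPS16, -0.60 for MRPS7, -0.58 for MRPS27, -0.55 for MRPS25, -0.41 for MRPS30 and -0.40 for MRPS5. It was 0.87 for MRPS31, 0.72 for MRPS36, 0.64 for MRPS22 and 0.64 for MRPS9.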

How the results depend on the processing

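With library totals alone as the scale, the log2 fold changes of all genes shifted from their TMM values by a median of -0.09 at 24 h and -0.16 at 48 h with siGGGGGC, by -0.15 with siGGCAGU and by 0.24 in siNT1 over time. Members called higher and lower were then 2 and 2 at 24 h, 18 and 21 at 48 h, 13 and 21 with siGGCAGU, and 1 and 0 in siNT1 over time. The shares over all genes were then, in the same order, 4.62% and 8.38%, 19.1% and 31.6%, 19.3% and 28.2%, and 16.1% and 1.06%. Medians of the large and small subunit became 0.0029 and -0.060 at 24 h, 0.079 and -0.15 at 48 h, -0.11 and -0.10 with siGGCAGU, and -0.031 and -0.030 in siNT1 over time. Uncalled members changed sign: MRPS30 to -0.068 at 24 h, MRPS18A to -0.15 and MRPL12 to -0.14 at 48 h, and with siGGCAGU MRPL12 to -0.16, MRPS18A to -0.15 and MRPS18C to -0.11. TMM on protein-coding genes gave 38 members lower in siNT1 over time, against 10.6% of the genes in that fit. It gave -0.011 for MRPS18A at 48 h. With DESeq2 the large subunit median for siGGGGGC against siGGCAGU was 0.27, and with siGGCAGU MRPL12 was at -0.035 and MRPS18A at -0.0074. With DESeq2 size factors in edgeR these were 0.27, -0.010 and -0.0075.

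Without the filter on low counts, siNT1 over time had 1 member higher and 11 lower, against 5.85% and 1.76% of all genes then tested. Medians of the large and small subunit were 0.11 and -0.12 with siGGGGGC at 48 h and -0.041 and -0.15 for the interaction, and the large subunit median for siGGGGGC against siGGCAGU was 0.21. MRPS18A and MRPL12 were then at -0.12 and -0.077 with siGGGGGC at 48 h, and MRPL12, MRPS18A and MRPS18C at -0.070, -0.071 and -0.046 with siGGCAGU. With only the groups compared, 10 members were lower at 24 h and 15 higher with siGGCAGU, against 16.7% and 22.3% of all genes then tested. MRPS18A was at -0.0063 with siGGGGGC at 48 h, and MRPL12, MRPS18A and MRPS18C were at -0.044, -0.038 and -0.0071 with siGGCAGU. Counting subunits by structure gave a large subunit median of 0.21 and a log2 ratio of 0.23 for siGGGGGC against siGGCAGU.

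Requiring a log2 fold change beyond 1 left 1 member higher and 0 lower at 24 h, 2 and 2 at 48 h, 1 and 3 with siGGCAGU, 1 and 5 for siGGGGGC against siGGCAGU, 0 and 3 for the interaction, and 0 lower in siNT1 over time. The difference between members with and without GCCCCC at 48 h was -0.13 at a mean count of at least 50, and with the 3′ UTR of the MANE Select or canonical transcript it was 0.067 at 24 h and -0.54 at 48 h. Leaving out members that overlap another gene was chosen after seeing the data. It gave log2 ratios of large to small subunit of 0.068 at 24 h, 0.21 at 48 h, -0.21 with siGGCAGU, 0.42 between the seeds and -0.029 in siNT1 over time, and small subunit medians of 0.11 with siGGGGGC at 48 h and 0.19 with siGGCAGU.

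Leaving out 1 library at a time gave 2 to 8 members higher and 0 lower at 24 h, 0 to 2 higher and 0 to 34 lower in siNT1 over time, and 5 to 17 higher for the interaction. Small subunit medians ranged from -0.11 to 0.19 with siGGGGGC at 48 h, from 0.035 to 0.27 with siGGCAGU, from -0.19 to -0.016 for the interaction and from -0.33 to -0.15 in siNT1 over time. Large subunit medians ranged from 0.019 to 0.20 for the interaction and from 0.16 to 0.26 between the seeds. The GCCCCC difference ranged from 0.10 to 0.17 at 24 h and from -0.50 to -0.048 at 48 h, and the ACTGCC difference from -0.12 to 0.043. Uncalled members whose sign changed were MRPS30 at 24 h (-0.078 to 0.14), with siGGGGGC at 48 h MRPS18C (-0.31 to 0.20), MRPS18A (-0.028 to 0.024) and MRPL12 (-0.63 to 0.99), and with siGGCAGU MRPL41 (-0.15 to 0.044), MRPL44 (-0.064 to 0.019), MRPL12 (-0.66 to 0.96), MRPS18A (-0.023 to 0.038), MRPS18C (-0.20 to 0.31) and MRPS36 (-0.026 to 0.46). The cause was not tested.

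Libraries with the same number did not deviate together (r from -0.29 to 0.11 between groups). A replicate block gave 13 higher and 1 lower at 24 h, 30 and 20 at 48 h, 23 and 16 with siGGCAGU and 17 lower in siNT1 over time. The shares over all genes were 9.51% and 7.34%, 27.1% and 26.7%, 27.0% and 24.0%, and 5.63% lower. A crossed pairing, chosen after seeing the data, gave 14 and 1, 31 and 20, 23 and 17, and 25 lower. Over all genes it gave 10.3% and 7.91%, 27.6% and 27.2%, 27.5% and 24.7%, and 6.9% lower. Of 102 values of named genes, 86 were past the threshold, and 70 kept direction and side under every alternative run. Depth limits MRPL12, MRPL38, MRPL53 and MRPS24 most.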
